A study of Gallus gallus with 6 samples.

Results

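A group of 7 genes that mark macrophages and other white blood cells was followed in neuronal cells sorted from the chick neural tube: B2M, CD74, CSF1R, PTPRC, SPI1, LCP1 and LY86. They were taken as all probe sets to which the array annotation gives exactly one symbol, that symbol being a member. This gave 18 probe sets of the 27168 with a single symbol, and 7 of 13009 genes. Every member was measured, 6 of them by more than 1 probe set.

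All cells came from White-Leghorn chick embryos, wild-type by their label, electroporated in ovo on day 3 of incubation and harvested on day 4, after 24 h. Both groups received Tubb3:Cre, in which a TUBB3 enhancer drives Cre recombinase, together with a vector that Cre unlocks. Tubb3::CAG:control cells then made membrane GFP from CAG:LoxP·mGFP, and Tubb3::CAG:TcfEnR cells made TcfEnR as well as GFP. TcfEnR fuses the HMG box of Tcf3, which binds DNA, to the engrailed repressor, and was used to ask which genes depend on Tcf in differentiating neurons. Each group had 3 replicates, each a pool of 20 to 25 dissected neural tubes that was dissociated with trypsin and sorted for GFP. A sorted pool can hold any cell with GFP, or any cell that passed the sort with it, and the arrays give 1 value for the whole pool. The values were log2 signals on Affymetrix GeneChip Chicken Genome Arrays, normalized by the authors with RMA, so that a difference of 1 is a 2-fold change.

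Macrophages are the first white blood cells to enter the embryonic nervous system, where they clear dying cells and give rise to microglia. SPI1 (PU.1) is the transcription factor that sets up the myeloid lineage, and CSF1R is the growth factor receptor on which macrophages depend. PTPRC (CD45), a receptor phosphatase, is carried by nearly all white blood cells. LCP1 (L-plastin) bundles actin, and LY86 (MD-1) is the partner of a Toll-like receptor relative on the cell surface. CD74, the invariant chain, guides MHC class II molecules, and B2M (β2-microglobulin) is the light chain of MHC class I. B2M and the class I molecules are present on many cell types besides white blood cells, and interferons raise them in most cells.

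The members did not move as one group. Of the 18 probe sets, 12 were higher in TcfEnR cells and 1 was lower at an adjusted p of 0.05 (limma, Benjamini-Hochberg over 38439 probe sets), and 5 were not called. Among all probe sets, 26.5% were higher and 26.2% lower by the same rule. By the brightest probe set of each gene, 5 members rose, B2M, CD74, CSF1R, PTPRC and SPI1, while LCP1 and LY86 were not called, against 25.0% higher and 32.6% lower among all genes. The median log2 difference of the 7 genes was 0.83, and that of all genes was −0.09. The 3 genes with every probe set called higher were B2M, CD74 and CSF1R. The groups did not overlap in 13 probe sets, 12 of them higher and 1 lower, against 31.9% higher and 30.2% lower without overlap among all probe sets. The arrays do not show which cells of a pool made these RNAs. A change in the number of white blood cells, in RNA per such cell or in other sorted cells cannot be told apart in these data.

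**Figure D1:**
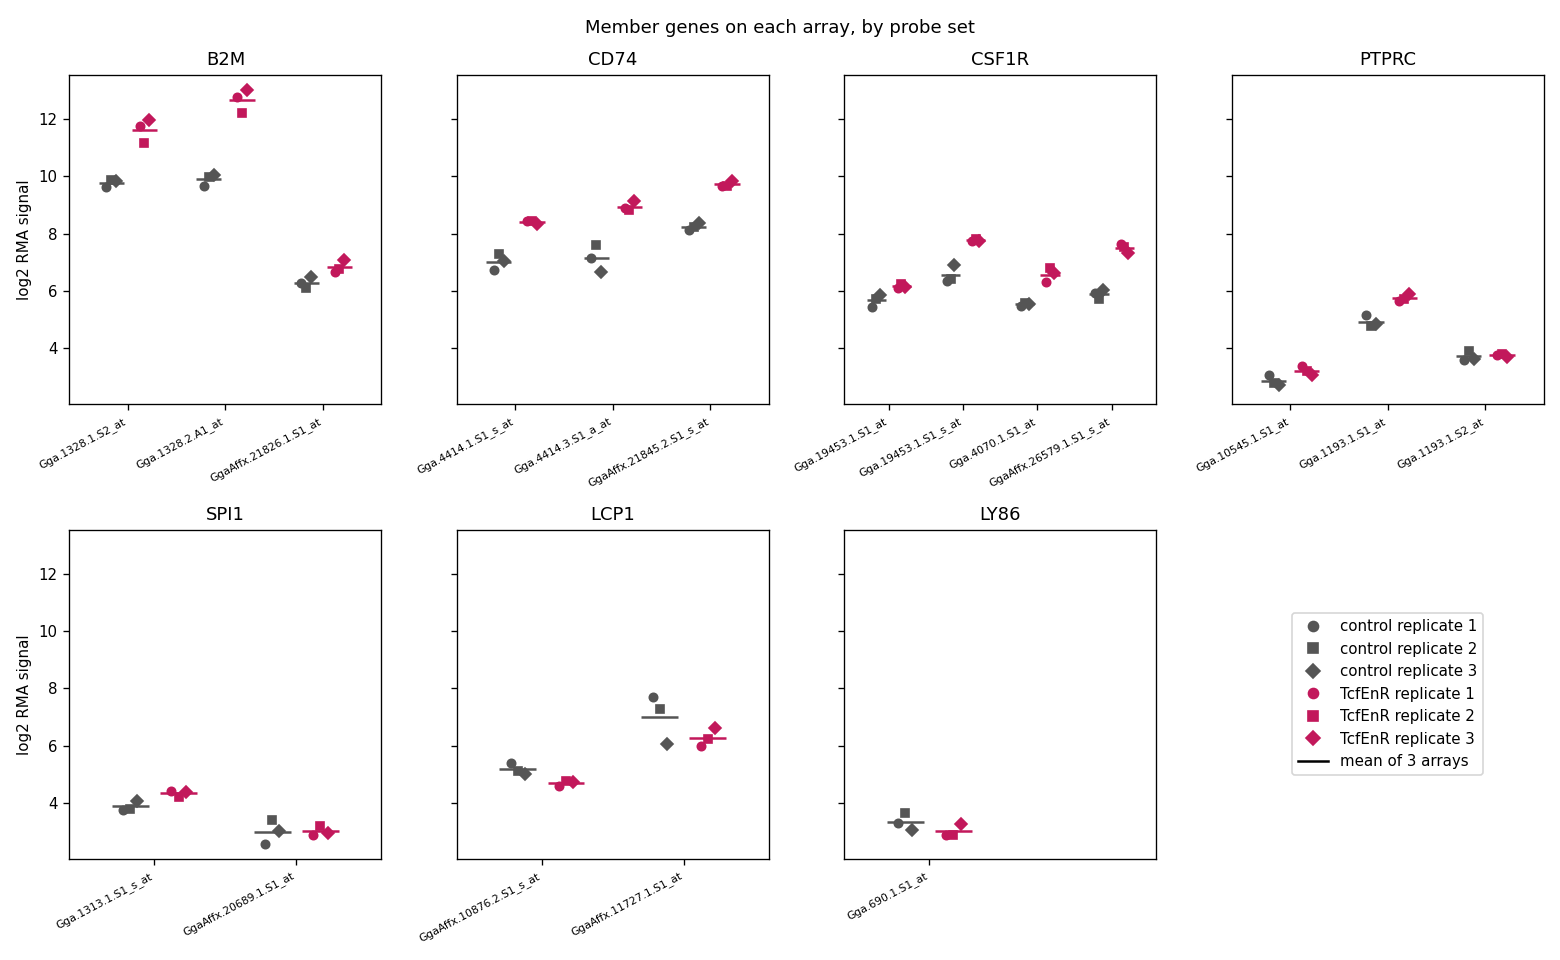
Log2 RMA signal (y axis) of each member probe set (x axis) on the 3 control arrays (grey) and the 3 TcfEnR arrays (magenta), with the replicate number as the symbol and the mean of each group as a line. B2M, CD74 and CSF1R lie higher on all TcfEnR arrays than on any control array, whereas the signals of SPI1 and LY86 are near the bottom of the range in both groups.

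B2M changed most. With its brightest probe set, Gga.1328.2.A1_at, it was at 9.65, 9.97 and 10.06 in control replicates 1, 2 and 3 and at 12.77, 12.21 and 13.03 in TcfEnR replicates 1, 2 and 3. The lowest TcfEnR array lay 2.15 log2 units above the highest control array. The log2 difference was 2.78 (SE 0.22, 95% confidence interval 2.29 to 3.27, n = 3 per group), a 6.86-fold rise (limma, adjusted p = 1.98e-05). It was the only member probe set past the 4-fold threshold that the study applied, which 1.47% of all probe sets passed upward. A second probe set, Gga.1328.1.S2_at, rose from 9.63, 9.88 and 9.84 to 11.78, 11.17 and 11.96, a log2 difference of 1.85 (SE 0.20, limma, adjusted p = 0.00012). The third, GgaAffx.21826.1.S1_at, was dimmer, at 6.29, 6.09 and 6.47 in control arrays and at 6.67, 6.76 and 7.08 in TcfEnR arrays. Its difference of 0.55 (SE 0.16, limma, adjusted p = 0.0184) was no longer called without control replicate 2 or without TcfEnR replicate 3 (adjusted p of up to 0.0686). The direction was thus shared by the 3 probe sets and the size was not. With the mean of the 3, B2M rose by 1.73 on the log2 scale (limma, adjusted p = 7.6e-05).

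CD74 rose with each of its 3 probe sets, and by similar amounts. GgaAffx.21845.2.S1_s_at was at 8.13, 8.21 and 8.37 in control replicates 1, 2 and 3 and at 9.67, 9.67 and 9.84 in TcfEnR replicates 1, 2 and 3. Arrays of a group lay close together, and the groups were 1.49 apart (SE 0.13, 95% confidence interval 1.19 to 1.79, limma, adjusted p = 3.67e-05), a 2.80-fold rise. Gga.4414.1.S1_s_at rose by 1.40 (SE 0.16) and Gga.4414.3.S1_a_at by 1.81 (SE 0.22), again without overlap between groups. With these 2 the control arrays were more spread, at 6.72, 7.27 and 7.05 and at 7.15, 7.59 and 6.66, than the TcfEnR arrays, at 8.45, 8.45 and 8.34 and at 8.88, 8.81 and 9.13.

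CSF1R rose with each of its 4 probe sets. The brightest, Gga.19453.1.S1_s_at, was at 6.33, 6.40 and 6.90 in control arrays and at 7.74, 7.81 and 7.73 in TcfEnR arrays. The TcfEnR pools were almost level with one another, and the rise of 1.21 (SE 0.17, 95% confidence interval 0.83 to 1.59, limma, adjusted p = 0.000419) was 2.32-fold. Gga.4070.1.S1_at rose from 5.49, 5.59 and 5.54 to 6.30, 6.80 and 6.61, by 1.03 (SE 0.15, limma, adjusted p = 0.000608). Gga.19453.1.S1_at, at 5.42, 5.72 and 5.86 and then 6.09, 6.25 and 6.15, rose by 0.49 (SE 0.15, limma, adjusted p = 0.0216). The call of this last probe set ended without control replicate 1, TcfEnR replicate 2 or TcfEnR replicate 3 (adjusted p of up to 0.0754).

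The largest CSF1R difference came from a probe set with an uncertain target. GgaAffx.26579.1.S1_s_at rose from 5.93, 5.73 and 6.01 to 7.65, 7.53 and 7.33, by 1.61 (SE 0.14, limma, adjusted p = 3.92e-05). The number 26579 in its name is shared by 3 other probe sets, of which the annotation gives 2 to FLT4, a VEGF receptor gene of the endothelium, and 1 to CSF1R and FLT4 together. The 2 FLT4 probe sets rose by 1.29 (SE 0.15) and 1.35 (SE 0.24). Which transcript the 26579 set of CSF1R reads cannot be settled from the annotation. Without it, the CSF1R differences ran from 0.49 to 1.21.

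PTPRC and SPI1, the broadest markers of white blood cells and of the myeloid lineage among the members, were dimmer than B2M, CD74 and CSF1R by their brightest probe sets. The 5th percentile of the arrays lay between 3.24 and 3.39. PTPRC was at 5.15, 4.77 and 4.84 in control arrays and at 5.63, 5.73 and 5.90 in TcfEnR arrays by its brightest probe set, Gga.1193.1.S1_at, a rise of 0.83 (SE 0.15, 95% confidence interval 0.49 to 1.17, limma, adjusted p = 0.00173) without overlap. The other 2 PTPRC probe sets had differences of 0.36 (SE 0.15, limma, adjusted p = 0.0669) and 0.04 (SE 0.14, limma, adjusted p = 0.815). The second of them was at 3.59, 3.90 and 3.62 in control arrays and at 3.77, 3.78 and 3.69 in TcfEnR arrays, with the groups overlapping. The first, Gga.10545.1.S1_at, was called higher with a variance trend and without control replicate 1. In the main fit a single PTPRC probe set of the 3 was thus called, and the rise came to 0.41 with their mean (limma, adjusted p = 0.0106).

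SPI1 was dimmer still. Gga.1313.1.S1_s_at was at 3.76, 3.79 and 4.07 in control arrays and at 4.41, 4.21 and 4.38 in TcfEnR arrays, a rise of 0.46 (SE 0.14, 95% confidence interval 0.14 to 0.78, limma, adjusted p = 0.0224). The groups were separated, but by only 0.14 between the nearest arrays. The call was lost with quantile normalization repeated and without control replicate 1, control replicate 2, TcfEnR replicate 1 or TcfEnR replicate 3 (adjusted p of up to 0.0843). The other SPI1 probe set, GgaAffx.20689.1.S1_at, was at 2.57, 3.40 and 3.01 and at 2.89, 3.18 and 2.94, with a difference of 0.01 (SE 0.21, 95% confidence interval −0.47 to 0.48). With the mean of both probe sets SPI1 was not called (0.23, limma, adjusted p = 0.172).

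LCP1 leaned the other way. Its brighter probe set, GgaAffx.11727.1.S1_at, was at 7.70, 7.28 and 6.06 in control replicates 1, 2 and 3 and at 5.97, 6.22 and 6.62 in TcfEnR replicates 1, 2 and 3. Control replicate 3 lay among the TcfEnR arrays, and the difference of −0.74 (SE 0.37, 95% confidence interval −1.58 to 0.10) was not called (limma, adjusted p = 0.121). Without control replicate 3 it was −1.22 and was called (adjusted p = 0.00119). The dimmer probe set, GgaAffx.10876.2.S1_s_at, fell by 0.48 (SE 0.15, limma, adjusted p = 0.0214), from 5.40, 5.12 and 5.01 to 4.58, 4.77 and 4.74. That call ended without control replicate 1 or TcfEnR replicate 1 (adjusted p of up to 0.0807).

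LY86 had a single probe set, Gga.690.1.S1_at, at 3.31, 3.65 and 3.05 in control arrays and at 2.87, 2.88 and 3.27 in TcfEnR arrays. These values lie around the 5th percentile of the arrays, and the groups overlapped. The difference was −0.33 (SE 0.19, 95% confidence interval −0.75 to 0.10, limma, adjusted p = 0.168). B2M and CD74, which take part in antigen presentation, thus rose at high levels by their brightest probe sets. CSF1R and the called PTPRC probe set rose at lower levels. The probe sets of SPI1 and LY86 lay in the dimmest of 5 equal groups of probe sets by mean level.

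**Figure D2:**
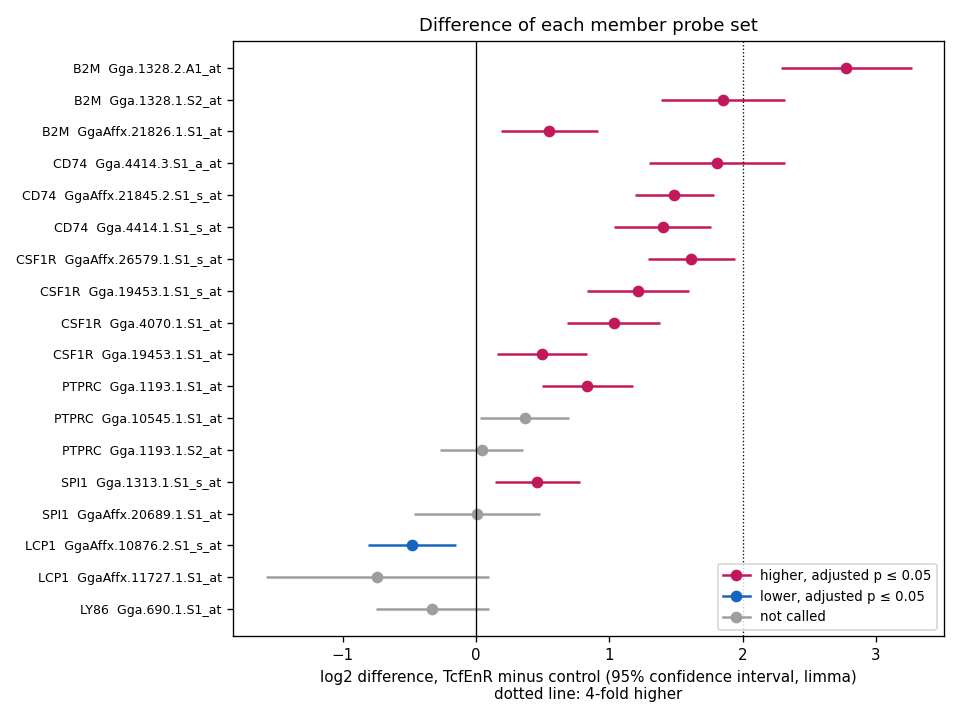
Log2 difference of TcfEnR minus control (x axis) for each of the 18 member probe sets (y axis), as points with 95% confidence intervals from limma and the colour as the call. The rise is largest for B2M, at 2.78, and all probe sets of B2M, CD74 and CSF1R lie above 0, whereas LCP1 and LY86 lie below it.

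The signal level bears on how such differences read. TcfEnR arrays had a narrower range than control arrays, with a 5th percentile of 3.38 to 3.39 against 3.24 to 3.30 and a 95th percentile of 10.16 to 10.21 against 10.49 to 10.52, and the brightest probe sets rose least often. When all probe sets were split into 5 equal groups by mean level, the median log2 difference was 0.16 in the dimmest and −0.28 in the brightest. The share called higher was 24.3% in the dimmest group, 36.4% and 33.0% in the next, 24.4% in the fourth and 14.4% in the brightest. The share called lower grew with the level, from 8.52% in the dimmest through 19.4%, 27.0% and 35.3% to 41.1% in the brightest. The B2M probe sets Gga.1328.2.A1_at and Gga.1328.1.S2_at and the CD74 probe set GgaAffx.21845.2.S1_s_at belonged to the brightest group. CSF1R and the called PTPRC probe set lay in the 2 groups above the dimmest, where rises were most common. Of the 6 member probe sets in the dimmest group, 1 rose, that of SPI1, and of the 12 above it 11 rose. With quantile normalization repeated, which gives all arrays the same range, the median of the 7 members went from 0.83 to 0.72. That of all genes went from −0.09 to 0.03. By brightest probe set 4 members were then called higher, SPI1 no longer among them. The part of the narrower range in the smaller rises was not tested beyond this.

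**Figure D3:**
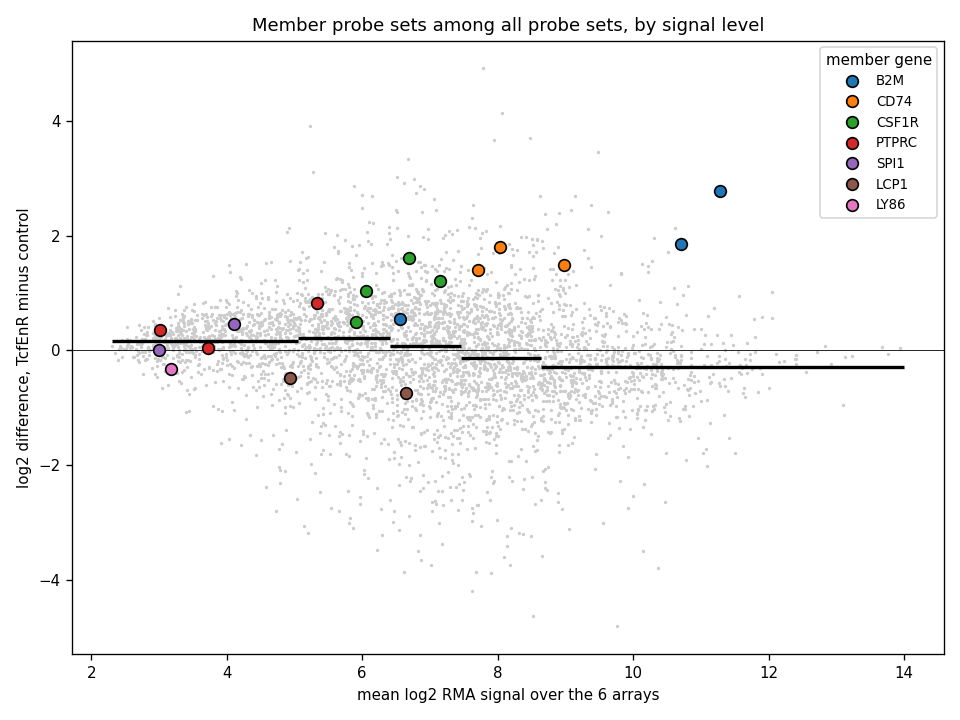
Log2 difference of TcfEnR minus control (y axis) against the mean log2 RMA signal over the 6 arrays (x axis), with every 10th probe set in grey, the member probe sets in colour and the median of each of 5 equal groups by level as a black line. The medians run from 0.16 in the dimmest to −0.28 in the brightest group, and the B2M, CD74 and CSF1R probe sets lie above the median of their group.

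Most of the measured genes that work with B2M and CD74 rose as well. Antigen-presenting molecules come in 2 kinds, class I, which pairs with B2M and is loaded by the TAP1/TAP2 peptide pump with the help of TAPBP, and class II, whose loading needs CD74 and the DM molecules. Of 20 measured genes of antigen presentation, 14 rose (70%) and 1 fell, with a median log2 difference of 0.88. Among all genes 25.0% were higher and 32.6% lower. The gene that fell was RFXAP, by 0.71 (SE 0.18, limma, adjusted p = 0.0099), and RFXANK and LGMN, at −0.17 and −0.09, were not called. The class I gene BF2 was at 7.88, 8.60 and 8.58 in control arrays and at 10.59, 10.18 and 10.86 in TcfEnR arrays, a rise of 2.19 (SE 0.24, limma, adjusted p = 0.000105). ERAP1, which trims peptides for class I, rose by 1.77 (SE 0.24, limma, adjusted p = 0.000401).

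The class II β chain gene BLB1 was at 6.995, 7.46 and 6.98 and then at 8.44, 8.89 and 9.19, a rise of 1.70 (SE 0.22, limma, adjusted p = 0.00026). DMA rose by 1.54 (SE 0.13, limma, adjusted p = 3.17e-05), from 6.79, 6.87 and 6.76 to 8.18, 8.43 and 8.42. The probe sets of BF2 and BLB1 carry the suffix _x_at, with which Affymetrix marks probes that can also bind related sequences, and class I and class II genes come in near copies, so that these values may hold signal of their relatives. The RefSeq annotation of the chicken genome (GRCg7b) places BLB1, TAPBP, DMA, DMB2, TAP1, TAP2 and BF2 close together on chromosome 16. CANX, CALR and PDIA3, general chaperones of the endoplasmic reticulum that also fold class I, had differences of 0.46, 0.13 and 0.15 and were not called.

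Interferon response genes rose in the same arrays. Of 21 measured, 17 rose (81%), 6 of them past the 4-fold threshold, against 25.0% higher among all genes. Falls numbered 0 (limma, also 0 at an unadjusted p under 0.05), and the median was 1.51. Over arrays left out 12 to 18 rose, and without control replicate 1, 2 were called lower. MX1, RSAD2 and EIF2AK2 were called higher although their groups overlapped. IFIT5, IFI6, SAMD9L and PARP9, at −0.51, −0.34, 0.24 and 0.38, were not called. IRF1, a transcription factor that acts on class I and class II genes, was at 6.33, 6.93 and 7.53 in control replicates 1, 2 and 3 and at 9.62, 8.79 and 9.56 in TcfEnR replicates 1, 2 and 3, a rise of 2.39 (SE 0.31, limma, adjusted p = 0.000308). HELZ2 rose by 2.31 (SE 0.30), PARP14 by 2.30 (SE 0.32) and CMPK2 by 2.03 (SE 0.28), each without overlap. Among the TcfEnR arrays replicate 2 was the lowest for each of these 4 genes, as it was for the 2 brighter B2M probe sets. Not every gene of the list had this order, as DHX58 and IFI35 were lowest in TcfEnR replicate 1 and GBP1 and IFIT5 in TcfEnR replicate 3. The mean log2 signal of the 21 interferon genes was 5.50, 6.04 and 6.05 in control replicates 1, 2 and 3 and 7.38, 6.64 and 7.44 in TcfEnR replicates 1, 2 and 3, and control replicate 1 and TcfEnR replicate 2 were also the lowest of their groups for BF2 and for the 2 brighter B2M probe sets, though not for the dimmest one. For BLB1 and DMA, TcfEnR replicate 2 lay above replicate 1, and for CD74 these arrays were level. The part of interferon response in the rise of B2M was not tested.

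**Figure D4:**
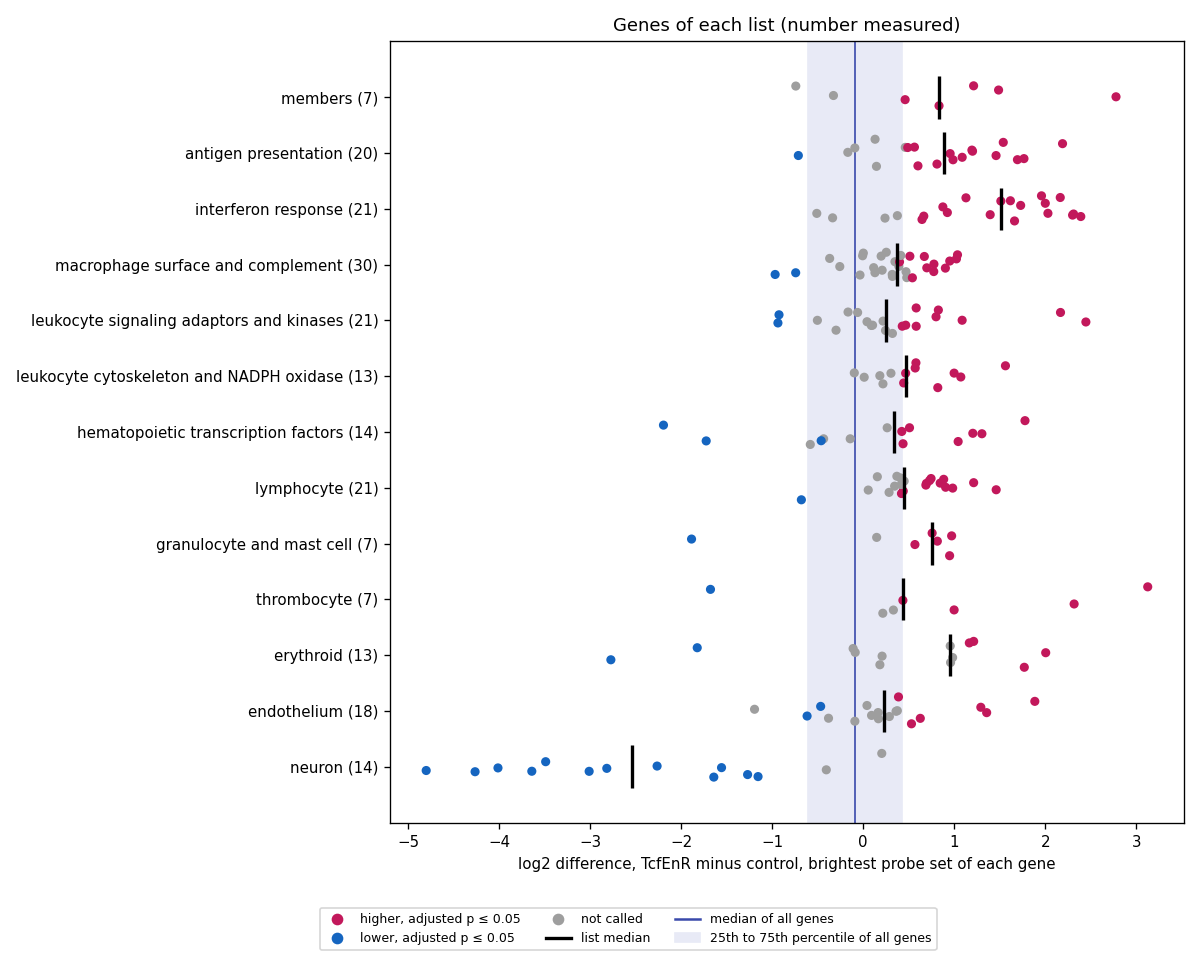
Log2 difference of TcfEnR minus control (x axis) for the brightest probe set of each measured gene, by list (y axis), with the colour as the call, list medians as black lines and the median of all genes and their 25th to 75th percentile in blue. Antigen presentation and interferon response have medians of 0.88 and 1.51, while the wider white blood cell lists stay nearer to the median of all genes, −0.09.

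A wider set of white blood cell genes held more rises than falls. Of 78 genes on 4 lists, 35 rose and 7 fell, where 25.0% of all genes rose and 32.6% fell. These shares of all genes are not matched to the lists by signal level, and dimmer groups of probe sets were called lower less often. Among 30 genes of macrophage surface and complement 11 rose (36.7%) and 2 fell, with a median of 0.37, and 9 lay in the dimmest group. That share of rises is near the 36.4% and 33.0% of probe sets called higher in the 2 groups above the dimmest. AXL, a receptor for dying cells that many cell types carry, rose by 1.04 (SE 0.15), the scavenger receptor gene STAB1 by 1.02 (SE 0.14) and the galectin gene LGALS3 by 0.95 (SE 0.19). The other 8 were LY96, the partner of a Toll-like receptor, at 0.90, MERTK, a relative of AXL, at 0.78, TREM2, a receptor of microglia, at 0.78, the fractalkine receptor gene CX3CR1 at 0.70, the complement receptor gene C5AR1 at 0.67, CSF2RA at 0.54, P2RY13 at 0.51 and the integrin gene ITGB2 at 0.40. Of these 8, LY96, CSF2RA and ITGB2 lay in the dimmest group of probe sets, and the calls of P2RY13 and ITGB2 ended with quantile normalization repeated. Both also ended without control replicate 2, TcfEnR replicate 1 or TcfEnR replicate 3, that of P2RY13 without control replicate 1 or with a variance trend and that of ITGB2 without control replicate 3 (adjusted p of up to 0.148 and 0.128). The interferon γ receptor gene IFNGR1 fell by 0.74 (SE 0.16), and the Toll-like receptor gene TLR2A fell by 0.97, a call that ended without control replicate 2 or TcfEnR replicate 3 (adjusted p of up to 0.0571). The other 17 were not called. Among these, the complement genes C1QA, C1QB and C1QC, which macrophages make in quantity, had differences of 0.47, −0.26 and 0.32, the scavenger receptor gene MARCO 0.32 and the mannose receptor gene MRC1 0.35.

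Signaling molecules of white blood cells included the largest rises of the 4 lists. HCLS1, an actin regulator downstream of antigen receptors, was at 7.71, 8.17 and 7.69 in control arrays and at 10.28, 10.53 and 10.11 in TcfEnR arrays, a rise of 2.45 (SE 0.18, limma, adjusted p = 1.43e-05). The phosphatase gene PTPN6 (SHP-1) rose from 4.93, 4.88 and 4.92 to 7.12, 7.23 and 6.89, by 2.17 (SE 0.14, limma, adjusted p = 7.15e-06). Both were far apart between groups, with little spread within them. The kinase gene FGR rose by 1.09 (SE 0.19). Of the 21 genes of this list 9 rose and 2 fell, and the median was 0.25. Those that fell were SKAP2, by 0.94, and the kinase gene LYN, by 0.93 (SE 0.15), both without overlap. The other 10 were not called, among them SYK at 0.25, LAPTM5 at 0.09, LCP2 at 0.04, FCER1G at −0.06 and ARHGAP15 at −0.17.

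Of 13 genes of the white blood cell cytoskeleton and NADPH oxidase 8 rose and 0 fell (limma, also 0 at an unadjusted p under 0.05), with a median of 0.47, and 4 rose without TcfEnR replicate 2. RAC2, a GTPase of blood cells, rose by 1.56 (SE 0.17), the myosin gene MYO1F by 1.07 (SE 0.15) and the Arp2/3 subunit gene ARPC1B by 0.9992 (SE 0.16). CYBA, one chain of the oxidase, rose by 0.82 (SE 0.20), whereas CYBB, the catalytic chain that phagocytes make, was at −0.10 and was not called.

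Among 14 hematopoietic transcription factors 7 rose and 3 fell, or 5 without control replicate 3. IRF8, a partner of SPI1 that is also induced by interferon, was at 6.61, 6.74 and 7.15 and then at 8.45, 8.49 and 8.88, a rise of 1.78 (SE 0.19, limma, adjusted p = 8.73e-05). The lymphoid factor gene IKZF3 rose by 1.30 (SE 0.18). MEF2C and BCL11A, which neurons also express, fell by 2.20 (SE 0.18) and 1.73 (SE 0.37).

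Genes of the profile most like that of a member were not white blood cell genes by name. The likeness was the root mean square difference between profiles over the 6 arrays, each centred on its own mean, among 13009 genes. For CSF1R the nearest were HORMAD1, MUC1, SLCO1C1, PDE4DIP and VWA3B, at 0.05 to 0.08 log2 units, and for CD74 they were SYNPO, CYP3A4, AQP5, GATD3AL2 and KCNA10, at 0.06 to 0.08. All 10 were called higher, by 2.25-fold to 3.01-fold, and the measure rests largely on the one step between groups.

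Markers of other blood and vessel cells were read beside the members. Of 21 lymphocyte genes 12 rose (57.1%) and 1 fell, with a median of 0.45, where 25.0% of all genes were higher and 32.6% lower. Among them were CD8A, by 1.21 (SE 0.15), and CD3D, by 0.91 (SE 0.16), and, from the dimmest group of probe sets, CD4, by 1.46 (SE 0.17) from a mean of 3.99, and RAG1, by 0.98 (SE 0.13). With dim probe sets left out, which removes CD4 and RAG1, 7 of 15 rose. Of the genes taken here as defining, PAX5 for B cells was at 0.28 and not called, and CD3E for T cells rose by 0.69. Whether the pools held lymphocytes was not tested. The summed level of the list, as the mean log2 signal, lay between 5.60 and 5.82 on the control side and between 6.23 and 6.29 in TcfEnR arrays. Of 7 granulocyte and mast cell genes 5 rose and 1 fell (3 of 3 rose with dim probe sets left out). The share of rises, 71.4%, was that of the members by their brightest probe sets. HDC, MMP9 and LECT2 rose by 0.97, 0.95 and 0.81, whereas KIT fell by 1.89. That list ran from 5.01 to 5.22 in control and from 5.38 to 5.49 in TcfEnR arrays. Of 7 thrombocyte genes 4 rose (57.1%) and 1 fell. P2RY1, ITGB3 and F5 were higher by 3.13, 2.32 and 0.9991 and THBS1 was at −1.68, while the defining gene GP9 was at 0.33 and not called. The level of the thrombocyte list was 6.60 to 6.72 in control and 7.45 to 7.54 in TcfEnR arrays.

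Of 18 endothelial genes 6 were higher (33.3%, near the 25.0% of all genes) and 2 lower, or 5 lower without control replicate 3 and 1 lower without control replicate 2, TcfEnR replicate 2 or TcfEnR replicate 3. EGFL7, FLT4, SOX18 and ROBO4 rose by 1.89, 1.29, 1.36 and 0.63, and the defining genes KDR, CDH5 and TIE1, at 0.29, 0.17 and 0.38, were not called. CDH5 was at 7.28, 7.44 and 4.98 in control replicates 1, 2 and 3 and at 6.57 to 6.94 in TcfEnR arrays. Its difference (SE 0.55) thus leaned on control replicate 3. The level of the list was 6.25 to 6.91 in control and 6.85 to 6.90 in TcfEnR arrays, and so did not separate the groups. The part of these cell types in the values of the members was not tested.

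Globin genes varied widely among the TcfEnR pools, where no member probe set had a range above 0.815 log2 units. The embryonic globin gene HBE was at 10.88, 9.93 and 10.04 in control replicates 1, 2 and 3 and at 12.14, 12.98 and 11.05 in TcfEnR replicates 1, 2 and 3. HBZ, an embryonic α-type globin gene, was at 11.54, 12.55 and 8.04 in TcfEnR replicates 1, 2 and 3, against 10.21, 9.37 and 9.67 in control replicates. TcfEnR replicate 3 thus held the least globin signal of its group, and for HBZ the least of all arrays. In that replicate B2M, CD74 and PTPRC had their highest values by the brightest probe set. CSF1R was at 7.73 there, beside 7.74 and 7.81 in the other TcfEnR arrays. Other probe sets of these genes did not all share this order. Replicate 3 was the lowest TcfEnR array for CD74 Gga.4414.1.S1_s_at, at 8.34, and for the other PTPRC probe sets. The same held for CSF1R GgaAffx.26579.1.S1_s_at, at 7.33, while the remaining CSF1R probe sets lay in between. It was the highest for CD74 Gga.4414.3.S1_a_at, at 9.13, and for the other B2M probe sets. TFRC, the transferrin receptor gene, was not called, at 0.21. Of 13 erythroid genes 4 rose (30.8%, near the 25.0% of all genes) and 2 fell. Without TcfEnR replicate 3, 7 rose. Only 1 fell without it, without control replicate 1 or 2 or without TcfEnR replicate 2. HBE was the only globin gene of the list called, while HBA1, HBAD and HBZ, at 0.98, 0.96 and 0.96, were not. SLC4A1 and HEMGN were higher by 1.21 and 2.01, and CA2 was at −2.77. Among the TcfEnR arrays SLC4A1 was lowest in replicate 3, at 6.85, but HEMGN was highest there, at 6.55, 7.08 and 7.34 in TcfEnR replicates 1, 2 and 3. The list was at 7.68 to 7.96 in control and at 7.39 to 8.77 in TcfEnR arrays. The part of red blood cells in the values of the members was not tested.

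Most neuronal genes were bright in the control arrays and fell in TcfEnR cells. Of 14 measured, 12 fell and 0 rose (limma, also 0 at an unadjusted p under 0.05), where 32.6% of all genes were lower. In the brightest group of probe sets 41.1% were lower. The largest log2 differences were −4.80 for ISL1, −4.27 for STMN2, −4.01 for DCX and −3.64 for NEFL. The mean level went from 10.29 to 11.26 in control to 8.34 to 8.43 in TcfEnR arrays. MAPT, at −0.41, was not called. Nor was GAP43, at 0.20, which was dim in control arrays, with a mean of 5.35. LCP1 had the same order as STMN2 among the control pools. Control replicates 1, 2 and 3 were at 12.40, 11.59 and 10.48 for STMN2 and at 7.70, 7.28 and 6.06 for LCP1. That order was not particular to neuronal genes. ARHGDIB, of the white blood cell signaling list, was at 11.10, 10.95 and 10.09 in these pools. LMO2, of the hematopoietic transcription factors, was at 7.90, 7.62 and 7.03. In the TcfEnR pools STMN2 was level, at 7.33, 7.12 and 7.23, where LCP1 was at 5.97, 6.22 and 6.62. B2M, CD74 and CSF1R had the opposite order to STMN2 among the control pools by the brightest probe sets, but no other B2M or CD74 probe set had it. CD74 Gga.4414.3.S1_a_at was lowest in control replicate 3, at 6.66. Among the other CSF1R probe sets only Gga.19453.1.S1_at had that order. The link of these values to the makeup of the pools was not tested.

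**Figure D5:**
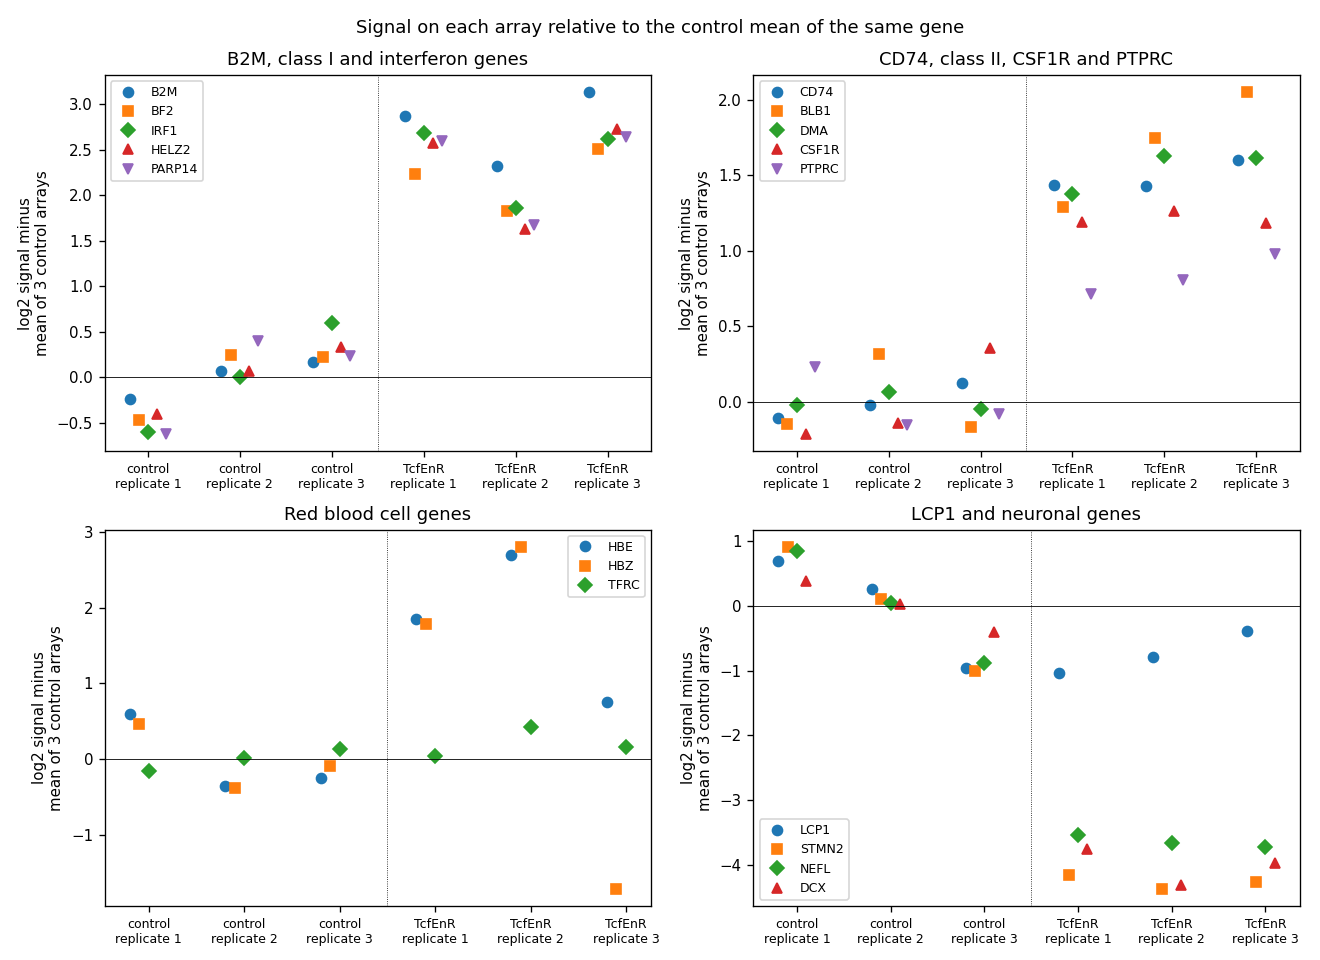
Log2 signal of named genes on each array relative to the mean of the 3 control arrays of the same gene (y axis), for the 6 arrays (x axis), in 4 panels. B2M, by its brightest probe set, and the class I and interferon genes shown share their lowest TcfEnR value in replicate 2. CD74 and CSF1R are level across the TcfEnR pools, and globin genes range widely among them. LCP1 has the order of the neuronal genes shown in the control pools only.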

How the data were processed

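GFP+ cells were sorted from pooled chick neural tubes, with 3 arrays per group of Tubb3::CAG:control and Tubb3::CAG:TcfEnR. The authors made the deposited log2 values with RMA (background correction, quantile normalization and summary of probes), and the software version was not given in the sources used here. The values were used as deposited. No array copied another. Of 38535 probe sets, 96 Affymetrix controls were left out. Of the other 38439, 27168 had 1 gene symbol, 177 several and 11094 none, by an annotation that can be old. A gene was represented by its brightest single-symbol probe set, judged by the mean of the 6 arrays.

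TcfEnR was compared with control by limma 3.58.1 in R 4.3.3, with empirical Bayes moderation and Benjamini-Hochberg adjustment over 38439 probe sets, and a call was an adjusted p of 0.05. The script was tested on simulated data. The precision is limited by the number of arrays. A p-value sets the difference between groups against the spread between pools, moderated over all probe sets, and does not cover the spread between embryos.

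The members and the 13 other lists were chosen with earlier results of these data known. Named genes were all members, up to 4 genes of each list with the largest called differences without overlap, the 5 profiles nearest to CSF1R and to CD74 and the 3 brightest erythroid genes. Others, such as C1QA, TREM2, CANX and CYBB, were named after their values were seen. The ligands CSF1, IL34 and MIF were not analysed here. Alternatives were repeated quantile normalization, median centring, a filter on the dimmest 20% of probe sets, trended and robust variance, a replicate block, leaving out each array and the mean over probe sets.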

Additional observations from a re-analysis of the deposited data

Results flagged for a closer look

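A probe set outside the members, GgaAffx.26579.3.S1_x_at, is annotated to CSF1R and FLT4 together and was left out for its several symbols. It was higher in TcfEnR cells by 0.59 (SE 0.14, limma, adjusted p = 0.006), from 3.36, 3.48 and 3.70 in control arrays to 4.11, 4.09 and 4.11 in TcfEnR arrays, and it is given here as a signal in data that the comparisons did not use.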

How the results depend on the processing

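The direction and the call of each B2M, CD74 and CSF1R probe set held under every alternative run, apart from the calls lost for B2M GgaAffx.21826.1.S1_at and CSF1R Gga.19453.1.S1_at when single arrays were left out. Over the alternatives run by probe set, the mean over probe sets not counted, the called rises of the members held in 133 fits, ended in 10 and turned in 0. The 3 rises by brightest probe set ran from 2.60 to 3.01 for B2M, from 1.43 to 1.73 for CD74 and from 1.11 to 1.39 for CSF1R. SPI1 lost its call with the mean of its probe sets (0.23). PTPRC Gga.1193.1.S2_at turned to −0.0934 and SPI1 GgaAffx.20689.1.S1_at to −0.0847 with quantile normalization repeated, and over arrays left out they ran from −0.0146 to 0.14 and from −0.21 to 0.21. Neither was called in any fit. The number of member probe sets called higher was 9 to 13, and that called lower was 0 with dim probe sets left out and 0 to 2 over arrays left out. Repeated quantile normalization moved the median of all genes from −0.09 to 0.03 and that of the 7 members from 0.83 to 0.72. The labels do not say whether samples with the same replicate number were prepared together. Correlations of same-numbered deviations were −0.04, 0.02 and −0.06, and control replicate 1 correlated best with TcfEnR replicate 3 (0.14). These values gave no sign of pairing, but with 3 arrays per group they cannot settle it. With the replicate block 12 member probe sets were higher and 1 lower, among 9446 and 9669 of all probe sets against 10186 and 10089 without it. Dim probe sets, those of SPI1, LY86 and most of PTPRC, limit what can be said of these genes.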
